A study of Mus musculus with 8 samples.

Results

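Ribosome biogenesis and RNA polymerase I genes are described here as a list of 45 named genes for nucleolar rRNA transcription, rRNA modification and ribosomal subunit assembly. The members were chosen by name, with earlier results of these data known. Of them 44 were rows of the deposited table of 30419 gene names, while Noc2l was not analysed here. A row was tested when at least 2 libraries held 10 or more counts, which kept 43 members and 12296 genes in all. Fbl, the methyltransferase of the box C/D particles, was the member in the table that was not tested, with 0 and 4 counts in mutant doxorubicin cells, 4 and 4 in mutant control cells, 1 and 7 in WT doxorubicin cells and 3 and 5 in WT control cells.

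The study asked how gene expression after DNA damage depends on Dino, a p53-induced long noncoding RNA transcribed beside Cdkn1a. Early-passage mouse embryonic fibroblasts (MEFs) from E13.5 embryos, grown in DMEM with serum, were either Dino mutant, labelled DINO loxP/loxP, or WT, labelled DINO+/+, and received 0.2 µg/mL doxorubicin, an anthracycline that intercalates into DNA and poisons topoisomerase II, or vehicle for 8 h. The 4 groups were mutant doxorubicin, mutant control, WT doxorubicin and WT control, with 2 libraries each, lettered A and B. RNA was sequenced and counted per gene. The labels name no Cre for the mutant line and do not say whether A and B came from separate embryos or cultures, so the p-values measure the spread between these libraries, which may be technical. Dino itself was not analysed here, so the mutant label has no check on its target.

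The nucleolus is the site where RNA polymerase I transcribes the ribosomal DNA repeats into a long precursor. Small nucleolar RNA-protein particles (snoRNPs) modify that precursor, with the box C/D particles guiding ribose methylation and the box H/ACA particles guiding pseudouridylation, while assembly factors build the small and large subunits around it and are released before the ribosome matures. Doxorubicin is known to disturb rDNA transcription and nucleolar structure, and unassembled ribosomal proteins can bind Mdm2, the ubiquitin ligase of p53.

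Total counts lay between 25482805 and 33285171 per library, and all 14 fibroblast markers were detected in every group, at a summed 6045 to 6208 CPM (counts scaled to the library total) in mutant doxorubicin, 6229 to 6340 in mutant control, 6255 to 6577 in WT doxorubicin and 6268 to 6679 in WT control libraries. Within that sum 6 of the 14 fell under doxorubicin in each genotype, while 1 rose in mutant and 4 rose in WT cells. The shares of all tested genes were 25.7% lower and 28.3% higher in mutant and 27.9% lower and 29.3% higher in WT cells. Pdgfra, a growth factor receptor, was among those that fell. It stood at 21.6 to 26.0 CPM in mutant doxorubicin and 80.7 to 85.2 CPM in mutant control libraries. In WT cells it stood at 18.0 to 21.3 CPM under doxorubicin and 69.7 to 77.0 CPM in control. Dcn was higher under doxorubicin, at 60.9 to 62.3 CPM against 41.9 to 47.2 CPM in mutant control libraries. Its WT values were 50.9 to 51.7 CPM under doxorubicin, against 35.6 to 37.2 CPM in control. The spread of counts within a group exceeded sampling noise everywhere, at a chi-square of 17.3 for each degree of freedom in WT doxorubicin cells and 5.34 to 6.09 in the other 3 groups. The p53 targets Cdkn1a and Mdm2 marked the treatment: Mdm2 averaged 1052 ± 20.9 CPM in mutant doxorubicin and 140 ± 6.64 CPM in mutant control cells, and 1158 ± 65.0 CPM in WT doxorubicin and 136 ± 5.39 CPM in WT control cells (SD, n = 2 each). Levels are given as CPM after TMM scaling and are compared between libraries, not between genes, because the values were not adjusted for transcript length. Error is given as the SE of the log2 fold change from edgeR, and a gene is said to have risen or fallen when its Benjamini-Hochberg adjusted p over all 12296 genes was under 0.05 in edgeR's quasi-likelihood test.

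Most members fell in doxorubicin cells of both genotypes. In mutant cells 32 of 43 tested members fell and 3 rose, with a background of 25.7% of all tested genes lower and 28.3% higher (54.0% in either direction). In WT cells 33 fell and 3 rose, with a background of 27.9% lower and 29.3% higher (57.2% in either direction). Without WT doxorubicin library A or library B, the libraries that stood furthest apart, 30 members fell and 3 rose in WT cells in each case, with medians of -0.84 and -0.97. The median log2 fold change of the members was -0.86 in mutant and -0.90 in WT cells, while that of all tested genes was 0.01 in each. A fall of at least 2-fold (log2 of -1 or below, among genes that passed the test) was seen for 17 members in mutant and 20 in WT cells, and the share of all tested genes at or below that value was 7.29% in mutant and 8.12% in WT cells. In this bulk RNA, fewer cells that express a gene and less of its RNA per cell cannot be told apart.

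The members' summed level was 3548 and 3439 CPM in mutant doxorubicin libraries, against 5968 and 5899 CPM in mutant control libraries. In WT cells the sum was 3030 and 3495 CPM under doxorubicin, against 6049 and 5821 CPM in control. All doxorubicin libraries thus lay below all control libraries, with Ddx21 and Npm1 making up most of each sum. Taken gene by gene, 36 members in mutant cells and 34 in WT cells had both doxorubicin libraries below both control libraries, with backgrounds of 37.6% and 38.2% of tested genes for mutant and WT cells.

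**Figure D1:**
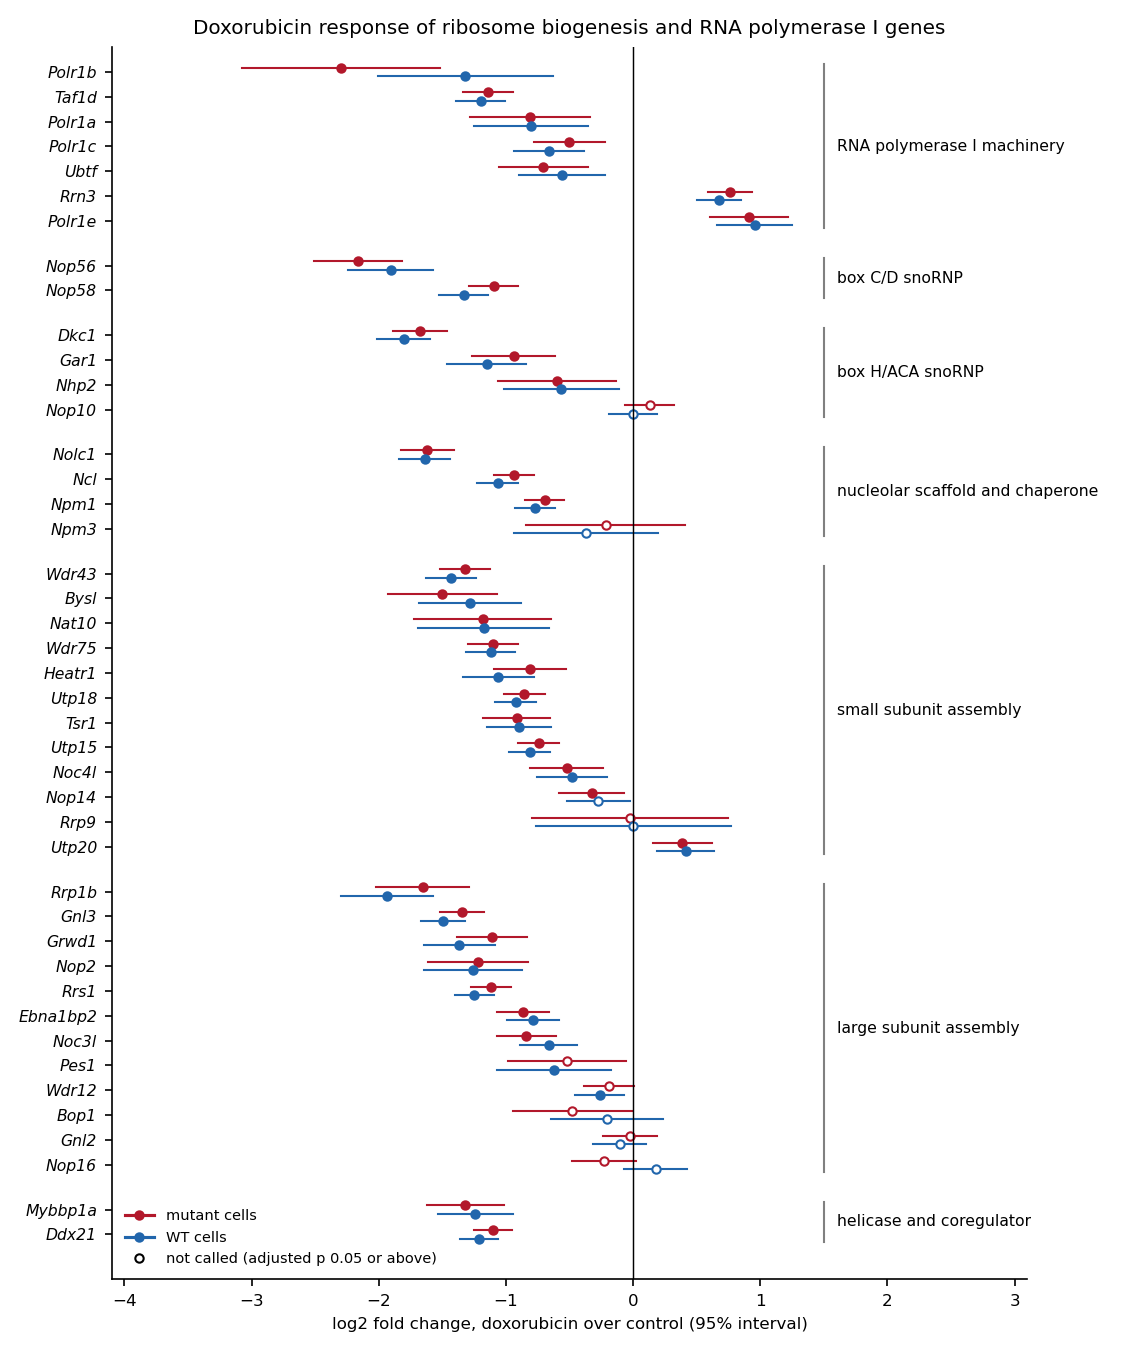
The log2 fold change of doxorubicin over control (x axis, with its 95% interval) is drawn for the 43 tested members, grouped by role, with mutant cells in red above WT cells in blue and open points for members that did not pass the test. Most points lie left of 0 in both genotypes, and of the members that passed the test Polr1e, Rrn3 and Utp20 lie to its right.

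Among the polymerase and its initiation factors, 5 of 7 tested members fell and 2 rose in each genotype. The backgrounds were 25.7% lower and 28.3% higher in mutant cells and 27.9% lower and 29.3% higher in WT cells. The share of this group that rose was thus near that of all tested genes. Polr1b, one of the large catalytic subunits of RNA polymerase I, held 8 and 8 counts (0.320 and 0.317 CPM) in mutant doxorubicin libraries, against 48 and 45 counts (1.65 and 1.52 CPM) in mutant control libraries. In WT cells it held 12 and 21 counts (0.398 and 0.657 CPM) under doxorubicin, against 37 and 44 counts (1.37 and 1.29 CPM) in control. The groups did not overlap in either genotype, and the counts in mutant doxorubicin cells were under the minimum of 10, so this gene was tested by virtue of the other groups. Its log2 fold change was -2.30 ± 0.37 in mutant cells (adjusted p = 2.1e-05) and -1.32 ± 0.33 in WT cells (adjusted p = 0.0018). Taf1d, a subunit of the promoter selectivity factor SL1, stood at 26.1 and 23.5 CPM in mutant doxorubicin libraries, against 57.2 and 52.5 CPM in mutant control libraries, and at 23.6 and 22.4 CPM in WT doxorubicin libraries, against 56.8 and 48.8 CPM in WT control libraries. Every doxorubicin library was under every control library, and the log2 fold changes were -1.14 ± 0.09 in mutant and -1.20 ± 0.09 in WT cells. Polr1a, the other large catalytic subunit, fell by 0.81 ± 0.23 and 0.80 ± 0.22 on the log2 scale in mutant and WT cells. Ubtf, the HMG-box protein that keeps rDNA chromatin open, had log2 fold changes of -0.70 ± 0.17 and -0.56 ± 0.16, and Polr1c, shared with RNA polymerase III, of -0.50 ± 0.13 and -0.66 ± 0.13 in mutant and WT cells. In WT cells the Polr1a call was lost without WT doxorubicin library B (log2 fold change -0.61, adjusted p = 0.053) and the Ubtf call without WT doxorubicin library A (-0.48, adjusted p = 0.052).

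The members that rose in this group are described library by library although their values were known when they were picked out. Rrn3 is the initiation factor that carries the polymerase to its promoter. It measured 587 and 559 CPM in mutant doxorubicin libraries, against 337 and 337 CPM in mutant control libraries, and 443 and 539 CPM in WT doxorubicin libraries, against 328 and 288 CPM in WT control libraries. The doxorubicin libraries were higher without overlap, by log2 0.76 ± 0.08 in mutant cells (adjusted p = 7.5e-08) and 0.67 ± 0.08 in WT cells (adjusted p = 4.3e-07). Polr1e, a subunit associated with the polymerase core, measured 9.09 and 9.50 CPM in mutant doxorubicin libraries, against 4.39 and 5.48 CPM in mutant control libraries, and 10.5 and 9.86 CPM in WT doxorubicin libraries, against 4.60 and 5.83 CPM in WT control libraries. These groups did not overlap either, and the log2 fold changes were 0.91 ± 0.15 in mutant and 0.96 ± 0.14 in WT cells.

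Both tested proteins of the box C/D particle fell, Nop56 more than any other member but Polr1b in mutant cells. The background was 25.7% of tested genes lower in mutant and 27.9% in WT cells. Nop56, a core protein of these particles, stood at 2.44 and 1.94 CPM in mutant doxorubicin libraries, against 10.6 and 9.10 CPM in mutant control libraries. In WT cells it stood at 2.45 and 2.19 CPM under doxorubicin, against 8.61 and 8.79 CPM in control. The level under doxorubicin was 22.3% of control in mutant cells (log2 fold change -2.17 ± 0.17, adjusted p = 3.7e-10) and 26.7% of control in WT cells (-1.91 ± 0.16, adjusted p = 1.3e-09), with no overlap of the groups. Nop58, its partner in the particle, stood at 21.7 and 21.2 CPM in mutant doxorubicin libraries, against 47.4 and 44.4 CPM in mutant control libraries, and at 17.9 and 20.2 CPM in WT doxorubicin libraries, against 45.6 and 50.4 CPM in WT control libraries. All doxorubicin libraries lay below all control libraries (log2 fold change -1.10 ± 0.09 in mutant and -1.33 ± 0.09 in WT cells).

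In the box H/ACA particle 3 of 4 proteins fell in each genotype, with a background of 25.7% of tested genes lower in mutant and 27.9% in WT cells. Dkc1, the pseudouridine synthase, which is X-linked and also part of telomerase, stood at 11.7 and 11.8 CPM in mutant doxorubicin libraries, against 37.6 and 37.5 CPM in mutant control libraries. Its WT values were 10.3 and 11.6 CPM under doxorubicin, against 35.7 and 40.7 CPM in control. The level was 31.3% of control in mutant and 28.6% of control in WT cells (log2 fold change -1.67 ± 0.10 and -1.80 ± 0.10). Gar1, which joins the particle late, stood at 3.80 and 5.14 CPM in mutant doxorubicin libraries, against 8.43 and 8.73 CPM in mutant control libraries, and at 3.88 and 4.82 CPM in WT doxorubicin libraries, against 9.76 and 9.61 CPM in WT control libraries. Both genes showed no overlap between treatments, and the log2 fold change of Gar1 was -0.94 ± 0.16 in mutant and -1.15 ± 0.15 in WT cells. Nhp2, a core RNA-binding protein of the particle, fell with log2 fold changes of -0.60 ± 0.22 and -0.57 ± 0.22 (adjusted p = 0.029 in mutant and 0.031 in WT cells). That call did not hold in DESeq2 (adjusted p = 0.10 in mutant and 0.11 in WT cells), and it was also lost without mutant control library B (log2 fold change -0.36), mutant doxorubicin library A (-0.40), WT control library A (-0.41) or WT doxorubicin library A (-0.43). Nop10, the small scaffold protein of the same particle, did not pass the test, with log2 fold changes of 0.13 ± 0.09 in mutant and -0.00 ± 0.09 in WT cells.

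Among nucleolar scaffold proteins and chaperones, Nolc1, Ncl and Npm1 fell in both genotypes and Npm3 did not pass the test. Nolc1, a chaperone of snoRNPs, stood at 9.89 and 9.69 CPM in mutant doxorubicin libraries, against 30.5 and 29.7 CPM in mutant control libraries, and at 9.61 and 10.4 CPM in WT doxorubicin libraries, against 32.1 and 30.4 CPM in WT control libraries. The level under doxorubicin was 32.6% of control in mutant and 32.1% of control in WT cells, without overlap, with log2 fold changes of -1.62 ± 0.10 in mutant and -1.64 ± 0.10 in WT cells. Ncl (nucleolin), which binds nascent pre-rRNA, stood at 157 and 166 CPM in mutant doxorubicin libraries, against 315 and 304 CPM in mutant control libraries, and at 134 and 159 CPM in WT doxorubicin libraries, against 312 and 301 CPM in WT control libraries. No Ncl libraries overlapped between treatments (log2 fold change -0.94 ± 0.08 in mutant and -1.06 ± 0.08 in WT cells). Npm1 (nucleophosmin), the main protein of the granular zone of the nucleolus, had log2 fold changes of -0.69 ± 0.07 and -0.77 ± 0.07, and Npm3 of -0.22 ± 0.30 and -0.37 ± 0.27 in mutant and WT cells.

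Of 12 tested factors for the small subunit, 10 fell and 1 rose in mutant cells, and 9 fell and 1 rose in WT cells. The backgrounds were 25.7% lower and 28.3% higher in mutant cells and 27.9% lower and 29.3% higher in WT cells. Wdr43, a subunit of the complex known in yeast as t-UTP, which binds the earliest pre-rRNA, stood at 24.5 and 20.7 CPM in mutant doxorubicin libraries, against 54.5 and 58.4 CPM in mutant control libraries, and at 19.8 and 21.8 CPM in WT doxorubicin libraries, against 58.1 and 53.8 CPM in WT control libraries. Its doxorubicin libraries were all lower (log2 fold change -1.32 ± 0.09 in mutant and -1.43 ± 0.09 in WT cells). Another 3 listed members linked to that complex fell, with log2 fold changes in mutant and WT cells of -1.10 ± 0.10 and -1.12 ± 0.09 for Wdr75, -0.81 ± 0.14 and -1.06 ± 0.14 for Heatr1, and -0.74 ± 0.08 and -0.81 ± 0.08 for Utp15. Of its subunits outside the member list, Cirh1a had log2 fold changes of -0.21 ± 0.11 in mutant cells, not past the test, and -0.43 ± 0.11 in WT cells, and Nol11 passed in neither (0.09 ± 0.07 and 0.08 ± 0.07). Bysl (bystin), needed late in small-subunit maturation, stood at 2.16 and 1.42 CPM in mutant doxorubicin libraries, against 5.04 and 5.11 CPM in mutant control libraries, and at 1.72 and 2.25 CPM in WT doxorubicin libraries, against 4.75 and 4.95 CPM in WT control libraries. The Bysl groups did not overlap (log2 fold change -1.50 ± 0.21 in mutant and -1.28 ± 0.19 in WT cells). Nat10, which acetylates small-subunit rRNA, had log2 fold changes of -1.18 ± 0.26 and -1.17 ± 0.25 in mutant and WT cells.

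Utp18 and Tsr1, which act early and late in small-subunit assembly in yeast, fell by 0.86 ± 0.08 and 0.92 ± 0.13 on the log2 scale in mutant cells and by 0.92 ± 0.08 and 0.90 ± 0.12 in WT cells. Smaller falls were measured for Noc4l, with log2 fold changes of -0.52 ± 0.14 in mutant and -0.48 ± 0.13 in WT cells, the WT value being -0.33 (adjusted p = 0.10) without WT control library B. Its partner Nop14 fell in mutant cells (-0.33 ± 0.12, adjusted p = 0.029) and had a log2 fold change of -0.27 ± 0.12 in WT cells (adjusted p = 0.055). The Nop14 call in mutant cells did not hold in DESeq2 (adjusted p = 0.097) or without mutant control library A (-0.29), mutant control library B (-0.36) or mutant doxorubicin library B (-0.25). Rrp9, a protein of the U3 particle, was the member of this group that passed in neither genotype (log2 fold change -0.02 ± 0.37 and 0.00 ± 0.37), at levels of 0.651 to 1.29 CPM over all 8 libraries. Utp20, a large helical-repeat protein of the early particle, rose. It measured 15.1 and 15.5 CPM in mutant doxorubicin libraries, against 12.6 and 10.8 CPM in mutant control libraries, and 16.0 and 14.9 CPM in WT doxorubicin libraries, against 11.1 and 12.0 CPM in WT control libraries. These groups did not overlap, at log2 fold changes of 0.39 ± 0.11 in mutant and 0.41 ± 0.11 in WT cells, and the mutant call was lost without mutant control library B (0.29, adjusted p = 0.095).

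**Figure D2:**
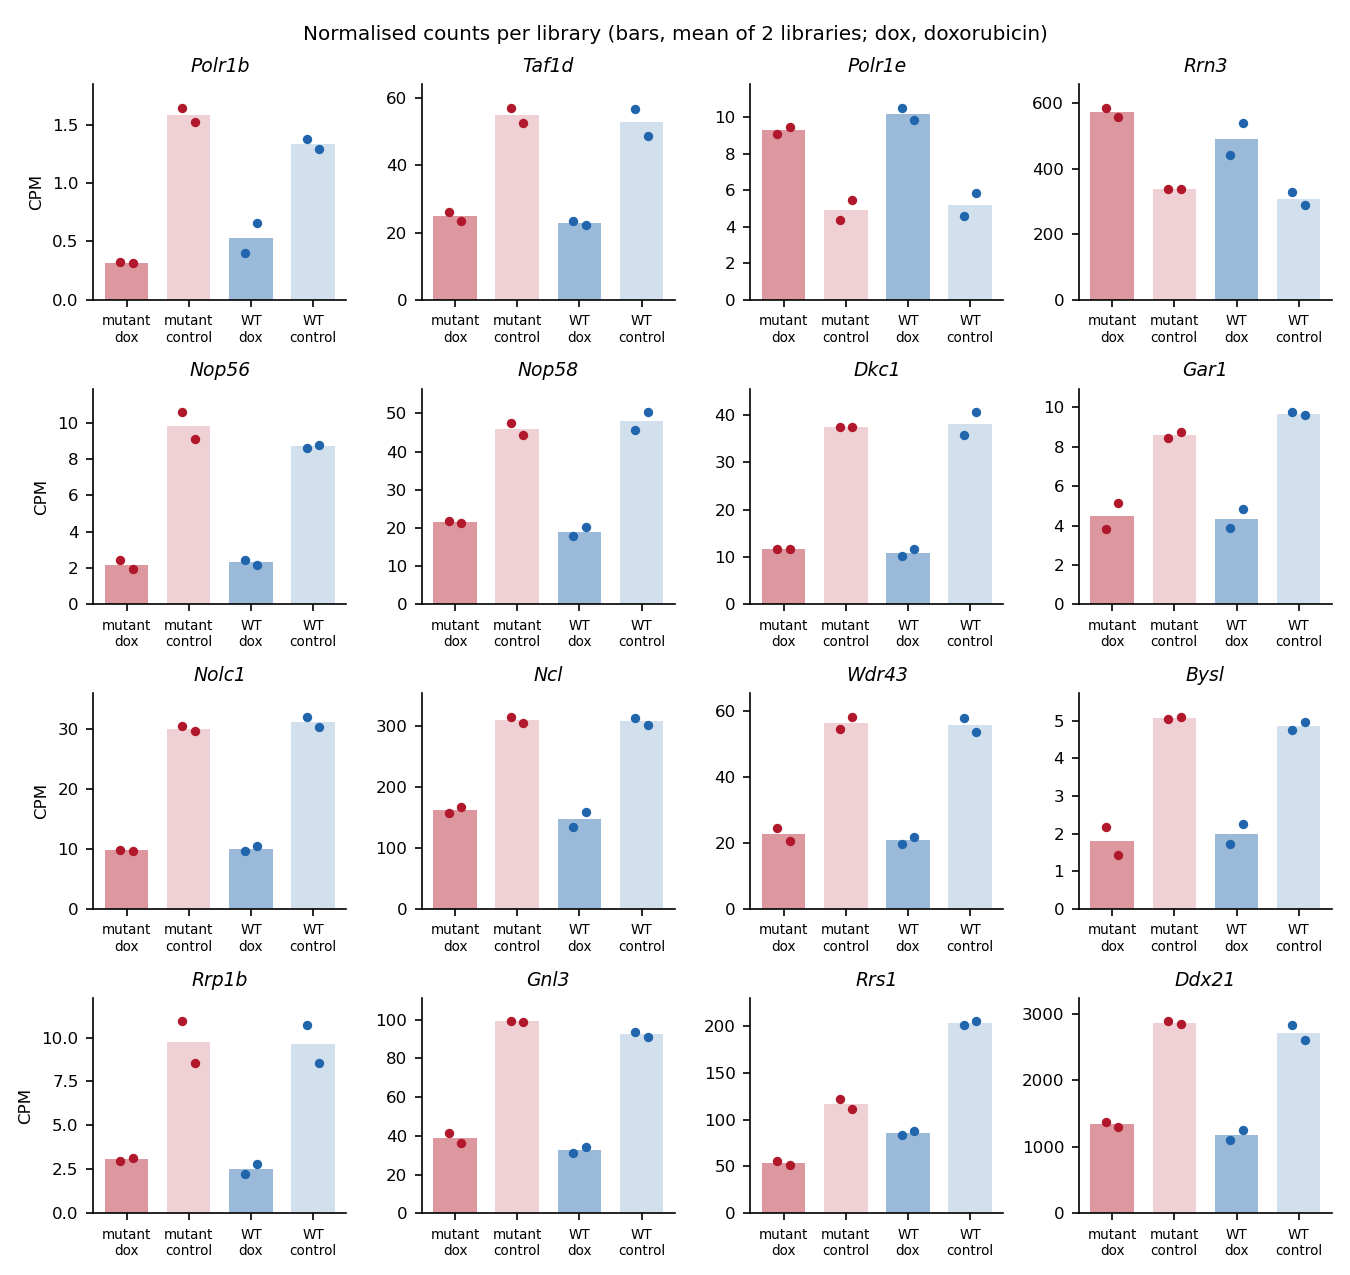
CPM per library (y axis, linear from 0; points) with the mean of 2 libraries (bars) is drawn for 16 members in mutant doxorubicin, mutant control, WT doxorubicin and WT control cells. Doxorubicin points lie below control points of the same genotype in 14 panels and above them for Polr1e and Rrn3, and Rrs1 is lower in mutant than in WT libraries under both treatments.

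Of 12 tested factors for the large subunit, 7 fell in mutant and 9 in WT cells, and none rose in either genotype (edgeR, also 0 at an unadjusted p under 0.05 and 0 in DESeq2). The backgrounds at adjusted p were 25.7% lower and 28.3% higher in mutant cells and 27.9% lower and 29.3% higher in WT cells. Rrp1b, a nucleolar protein of large-subunit processing, stood at 3.00 and 3.17 CPM in mutant doxorubicin libraries, against 10.9 and 8.53 CPM in mutant control libraries, and at 2.22 and 2.79 CPM in WT doxorubicin libraries, against 10.7 and 8.55 CPM in WT control libraries. Its level was 31.7% of control in mutant and 26.2% of control in WT cells (log2 fold change -1.66 ± 0.17 and -1.93 ± 0.17). Gnl3 (nucleostemin), a nucleolar GTPase, stood at 41.6 and 36.4 CPM in mutant doxorubicin libraries, against 99.3 and 98.9 CPM in mutant control libraries, and at 31.2 and 34.4 CPM in WT doxorubicin libraries, against 93.5 and 91.2 CPM in WT control libraries. Neither gene showed overlap between treatments, and Gnl3 had log2 fold changes of -1.34 ± 0.08 in mutant and -1.49 ± 0.08 in WT cells. Its paralog Gnl2 did not pass the test (-0.02 ± 0.10 in mutant and -0.11 ± 0.10 in WT cells). Falls were also measured, in mutant and WT cells, for Nop2, an rRNA cytosine methyltransferase (log2 fold change -1.22 ± 0.19 and -1.26 ± 0.19), Grwd1, a chaperone of a large-subunit protein (-1.11 ± 0.13 and -1.37 ± 0.13) and the large-subunit factors Ebna1bp2 (-0.87 ± 0.10 and -0.78 ± 0.10) and Noc3l (-0.84 ± 0.11 and -0.66 ± 0.11).

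The PeBoW complex, which Pes1, Bop1 and Wdr12 form for large-subunit maturation, had log2 fold changes between -0.19 and -0.62. Pes1 had log2 fold changes of -0.52 ± 0.22 in mutant cells (adjusted p = 0.054) and -0.62 ± 0.22 in WT cells (adjusted p = 0.018). Wdr12 had log2 fold changes of -0.19 ± 0.09 in mutant cells (adjusted p = 0.097) and -0.26 ± 0.09 in WT cells (adjusted p = 0.019), and Bop1 of -0.48 ± 0.22 and -0.20 ± 0.21, neither past the test. The WT call of Pes1 was lost in DESeq2 (adjusted p = 0.095) and without WT control library B (-0.57), WT doxorubicin library A (-0.61) or WT doxorubicin library B (-0.61), and that of Wdr12 without WT control library A (-0.22) or WT doxorubicin library B (-0.22). In mutant cells Pes1 passed without mutant doxorubicin library B (-0.80, adjusted p = 0.026). Nop16, a large-subunit factor in yeast, had log2 fold changes of -0.23 ± 0.12 in mutant and 0.18 ± 0.12 in WT cells, neither past the test; without mutant control library A the mutant value was -0.36 (adjusted p = 0.043).

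Both remaining members fell. Ddx21, an RNA helicase of the nucleolus, stood at 1382 and 1293 CPM in mutant doxorubicin libraries, against 2893 and 2848 CPM in mutant control libraries, and at 1102 and 1249 CPM in WT doxorubicin libraries, against 2837 and 2602 CPM in WT control libraries. Mybbp1a, a nucleolar coregulator that binds p53, stood at 3.76 and 4.79 CPM in mutant doxorubicin libraries, against 10.2 and 11.1 CPM in mutant control libraries, and at 3.91 and 4.48 CPM in WT doxorubicin libraries, against 10.2 and 9.70 CPM in WT control libraries. All doxorubicin libraries of both genes were lower, with log2 fold changes in mutant and WT cells of -1.10 ± 0.07 and -1.21 ± 0.07 for Ddx21 and -1.32 ± 0.15 and -1.24 ± 0.14 for Mybbp1a. In all, 31 members fell in both genotypes, 3 rose in both, none moved in opposite directions by edgeR, and 6 passed in neither. Of all tested genes 25.7% fell in mutant and 27.9% in WT cells, and 87.8% had the same sign in both responses. Likeness of the 2 responses was thus not particular to the members. The share of all tested genes that passed in both genotypes is not given here.

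Other genes of the pathway were taken from lists by role, described by counts and medians. The backgrounds for these counts were 25.7% lower and 28.3% higher in mutant cells and 27.9% lower and 29.3% higher in WT cells. Of 43 other small-subunit factors, 23 fell and 2 rose in mutant cells and 28 fell and 2 rose in WT cells (median log2 fold change -0.42 and -0.46). Nob1, the nuclease that matures small-subunit rRNA, fell by 1.13 ± 0.23 in mutant and 1.68 ± 0.24 in WT cells on the log2 scale, while Rrp36, an early processing factor, rose by 1.04 ± 0.21 and 1.37 ± 0.21. Of 43 other large-subunit factors, 23 fell and 4 rose in mutant cells and 22 fell and 2 rose in WT cells (median -0.36 and -0.40). Rrp15, another factor of the large subunit, fell by 1.19 ± 0.18 in mutant and 1.43 ± 0.17 in WT cells, and Mak16 and Brix1, which act early on the large subunit in yeast, rose with log2 fold changes of 0.85 ± 0.09 and 0.58 ± 0.07 in mutant cells and 0.81 ± 0.09 and 0.67 ± 0.07 in WT cells. Of 14 genes of the RNA exosome, which trims rRNA precursors, 10 fell and 1 rose in mutant cells and 9 fell and 1 rose in WT cells (median -0.65 and -0.81). Exosc2, a cap subunit, had log2 fold changes of -1.23 ± 0.16 in mutant and -1.28 ± 0.16 in WT cells, and Exosc9, of the ring, of 0.76 ± 0.13 and 0.66 ± 0.12.

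Of 10 snoRNP assembly genes, 6 fell in mutant and 7 in WT cells (median -0.53 and -0.72). Tcof1 (treacle), which binds the polymerase and Ubtf, had log2 fold changes of -1.27 ± 0.17 in mutant and -1.46 ± 0.16 in WT cells. The remaining 12 tested RNA polymerase I genes had medians near 0 (0.06 in mutant and -0.05 in WT cells). Of them 2 fell and 1 rose in mutant cells and 3 fell and 2 rose in WT cells. Each of these shares was under that of all tested genes. Polr2e, a subunit shared by all nuclear polymerases, had log2 fold changes of -1.36 ± 0.29 in mutant and -0.98 ± 0.27 in WT cells. Ttf1, the factor that ends rDNA transcription, had log2 fold changes of 0.55 ± 0.15 in mutant and 0.67 ± 0.15 in WT cells. Pooled over 122 such genes, the median was -0.41 in mutant and -0.45 in WT cells, between those of the members and of all tested genes.

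**Figure D3:**
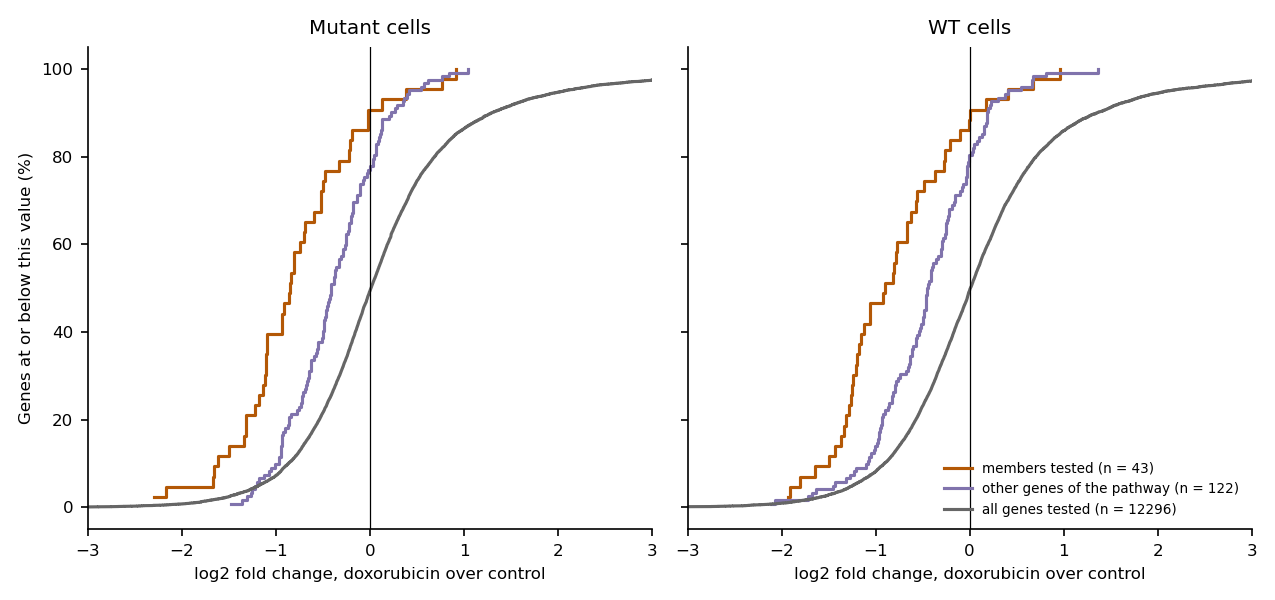
The share of genes (y axis, percent) at or below each log2 fold change of doxorubicin over control (x axis, drawn from -3 to 3) is plotted for 43 members, 122 other genes of the pathway and all 12296 tested genes, with mutant cells left and WT cells right. The curve of the members lies left of the curve of all genes over most of its range. At the median the other pathway genes lie between them. In WT cells the other pathway genes reach -2.12, left of the lowest member at -1.93.

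Markers of other cell types were followed beside these counts. The summed level of 8 macrophage markers, 7 of them tested, was 32.6 to 37.0 CPM in mutant doxorubicin, 28.2 to 28.3 in mutant control, 31.8 to 33.0 in WT doxorubicin and 21.1 to 22.5 CPM in WT control libraries. Of the 7 tested, 1 rose in mutant and 4 rose in WT cells, and 0 fell in either, with 28.3% and 29.3% of all tested genes higher. Cd14 stood at 2.32 to 2.89 CPM in mutant doxorubicin and 0.274 to 0.304 in mutant control libraries. Its WT values were 3.07 to 4.71 CPM under doxorubicin and 0.260 to 0.732 CPM in control. The summed level of 6 endothelial markers, 3 tested, was 5.69 to 5.86, 1.34 to 1.73, 6.64 to 11.1 and 2.08 to 2.96 CPM in the same groups. Most of that difference was in Tek, at 4.37 to 4.63 CPM in mutant doxorubicin, 0.338 to 0.514 in mutant control, 5.60 to 9.44 in WT doxorubicin and 0.780 to 1.17 CPM in WT control libraries, while Tie1 and Cldn5 were at 0 in every library and Pecam1 was at or under 0.0663 CPM. Epithelial, skeletal muscle and erythroid lists stayed at or under 1.10 CPM in sum, and Hbb-b1 was at 0 in every library. The part of these levels in the changes of the members was not tested.

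Members that host snoRNAs were among those that fell. In GENCODE M21, 8 of 43 tested members (18.6%) contain snoRNA genes on their own strand, as do 224 of 11215 tested genes matched in that annotation (2.00%). They are Taf1d with 8 snoRNA genes, Nop56 with 5, Nop58 with 4, Ncl, Wdr43 and Gnl3 with 3 each, Tsr1 with 2 and Dkc1 with 1. All 8 fell in both genotypes, with a median log2 fold change of -1.23 in mutant and -1.38 in WT cells, while the other members had medians of -0.74 and -0.77. Among all tested hosts 103 of 224 fell in mutant and 112 in WT cells, with medians of -0.28 and -0.32.

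Promoter sequence was taken from RefSeq on build GRCm38.p6 for the 3 members with the largest falls and the 1 with the largest rise in WT cells, so that their start regions can be set beside each other. Each stretch runs 150 bases up to the annotated start in lower case, followed by the first 10 transcribed bases in capitals, 5′ to 3′ on the plus strand. They lie at chr17:32036012-32036171 (Rrp1b), chr2:130274262-130274421 (Nop56), chrX:75095704-75095863 (Dkc1) and chr4:45018459-45018618 (Polr1e).
Rrp1b: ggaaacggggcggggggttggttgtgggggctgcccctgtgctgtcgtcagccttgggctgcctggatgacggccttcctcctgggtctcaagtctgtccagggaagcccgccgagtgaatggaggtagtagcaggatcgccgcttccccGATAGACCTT
Nop56: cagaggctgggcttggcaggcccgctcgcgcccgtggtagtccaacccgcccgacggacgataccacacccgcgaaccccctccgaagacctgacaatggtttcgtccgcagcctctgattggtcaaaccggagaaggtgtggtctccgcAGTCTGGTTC
Dkc1: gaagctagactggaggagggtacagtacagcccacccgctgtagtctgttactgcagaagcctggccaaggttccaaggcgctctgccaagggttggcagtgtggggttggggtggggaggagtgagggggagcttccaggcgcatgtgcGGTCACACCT
Polr1e: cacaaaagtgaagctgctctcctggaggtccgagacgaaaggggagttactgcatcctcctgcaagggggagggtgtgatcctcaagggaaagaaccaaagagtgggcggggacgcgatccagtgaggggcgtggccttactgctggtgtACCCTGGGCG
The falling Rrp1b, Nop56 and Dkc1 and the rising Polr1e had no CACGTG in their windows of 250 bases before to 50 after the start. All 4 stretches are rich in G and C, at 64.4% in Rrp1b and Nop56, 61.9% in Dkc1 and 60.0% in Polr1e.

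CACGTG, the palindromic E-box that MYC with MAX can bind, was the only motif searched, and it reads the same on both strands. It occurred in the windows of 9 of 39 tested members with a RefSeq window (23.1%), in those of 1044 of 8912 tested genes (11.7%) and in those of 8.09% of all 27025 genes of the table. Of the 9 members with it, 6 fell and 2 rose in mutant cells and 7 fell and 2 rose in WT cells, and of the 30 without it 24 fell in each genotype. The backgrounds were 25.7% of all tested genes lower and 28.3% higher in mutant cells and 27.9% lower and 29.3% higher in WT cells. The members' median log2 fold change with and without the motif was -0.92 and -0.85 in mutant cells and -0.92 and -0.94 in WT cells. Over the 8912 tested genes these medians were -0.04 and 0.01 in mutant and -0.05 and 0.02 in WT cells. A match is a description of the letters and not of binding. The stretches below show the motif in capitals where it precedes the start in called members, for Nop2 at chr6:125131793-125131858 (plus strand), Utp18 at chr11:93885767-93885816 (minus strand) and Rrn3 at chr16:13780621-13780686 (plus strand).
Nop2: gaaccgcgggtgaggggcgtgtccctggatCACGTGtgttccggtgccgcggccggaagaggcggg
Utp18: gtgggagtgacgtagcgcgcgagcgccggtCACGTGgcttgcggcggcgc
Rrn3: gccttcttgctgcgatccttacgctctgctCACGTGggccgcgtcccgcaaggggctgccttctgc
The motif begins 60 bases before the start of Nop2 and 20 before that of Utp18, which fell, and 48 before that of Rrn3, which rose. Rrn3 holds another copy 215 bases before its start.

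The next comparison asked whether the response differed between the genotypes. The difference between the mutant and the WT response passed the test for no member, neither upward nor downward (edgeR, lowest adjusted p = 0.77), with a background of 0.0407% of tested genes higher and 0.0488% lower (0.0895% in all). At an unadjusted p under 0.05, for which no share of all tested genes is given here, there was 1 member, Nop16, and DESeq2 called 0. The median difference in log2 fold change was 0.06 for the members and 0.01 for all tested genes. Nop16 differed by -0.40 ± 0.17, with a 95% interval of -0.76 to -0.05 and an adjusted p of 0.77. The 95% intervals lay within 0.5 of 0 for 23 of 43 members and within 1 of 0 for 41, so larger differences were outside the interval for those members. The exceptions were Polr1b, at -0.98 ± 0.53 with an interval of -2.07 to 0.11, and Rrp9, with an interval of -1.11 to 1.06, both at low counts. Across the 43 members the fold changes of mutant and WT cells had a Pearson r of 0.949 and a Spearman rho of 0.966, and 40 had the same sign. Over all tested genes r was 0.907 and 87.8% had the same sign; genes are not independent replicates.

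Between the genotypes 1 member, Rrs1, passed the test. Rrs1, which in yeast helps bring the smallest large-subunit rRNA into the ribosome, stood at 122 and 111 CPM in mutant control libraries, against 201 and 205 CPM in WT control libraries. Under doxorubicin it stood at 55.4 and 51.9 CPM in mutant libraries, against 83.2 and 87.8 CPM in WT libraries. Mutant libraries were lower without overlap in both treatments. The log2 difference of mutant against WT was -0.80 ± 0.07 in control cells (95% interval -0.95 to -0.65, adjusted p = 9.8e-08) and -0.67 ± 0.08 in doxorubicin cells (-0.83 to -0.52, adjusted p = 2.8e-06), at backgrounds of 3.17% of tested genes lower in control cells and 3.74% in doxorubicin cells (5.93% and 7.67% in either direction). Its own response to doxorubicin was a log2 fold change of -1.12 ± 0.08 in mutant and -1.25 ± 0.07 in WT cells, a difference of 0.13 ± 0.10 that did not pass the test (95% interval -0.09 to 0.35).

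No member was higher in mutant than in WT cells by edgeR, with backgrounds of 2.76% of tested genes in control and 3.93% in doxorubicin cells. DESeq2 also called 0 in each. At an unadjusted p under 0.05 in edgeR, 0 members were higher and 2 lower in control cells, and 6 were higher and 1 lower in doxorubicin cells. The share of all tested genes at that unadjusted threshold is not given here, so these counts have no background. In control cells 39 of 43 intervals lay within 0.5 of 0, and in doxorubicin cells 29. The doxorubicin comparison depended on single libraries. Without WT doxorubicin library B that group was library A alone, where the members summed to 3030 CPM, against 3495 CPM in B. Ddx21, Gnl3, Heatr1, Ncl and Rrn3 were then higher in mutant cells (log2 difference 0.28, 0.32, 0.57, 0.27 and 0.37 in that order). Without mutant doxorubicin library B, which left mutant doxorubicin library A alone, Gnl3 was higher (0.34). The share of all tested genes called in these fits is not given here. With all libraries Rrn3 differed by 0.22 ± 0.08 (adjusted p = 0.12).

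**Figure D4:**
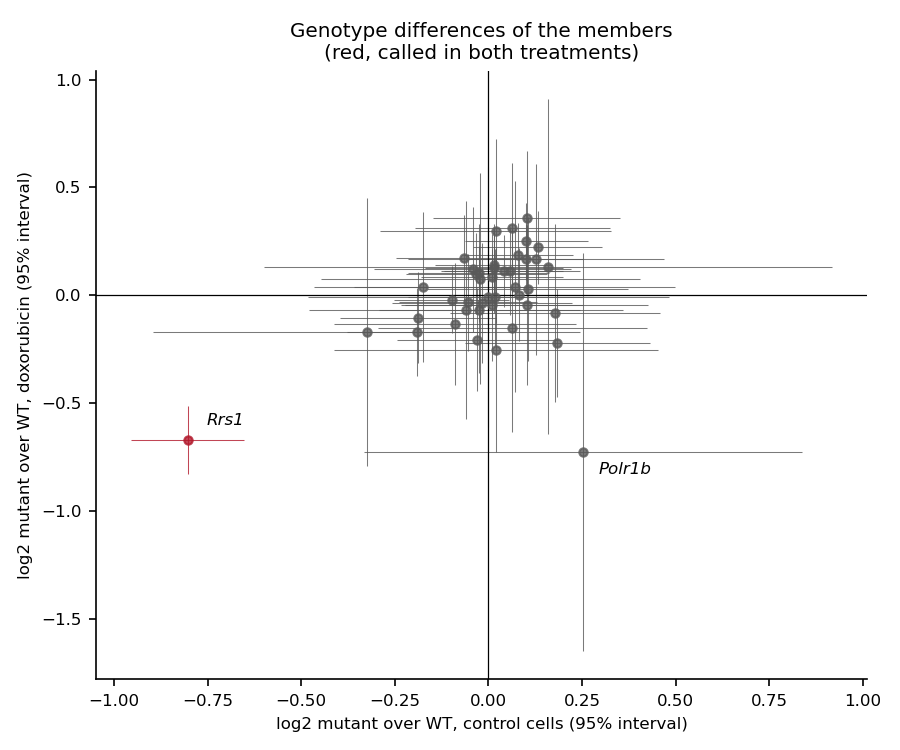
The log2 difference of mutant over WT in control cells (x axis) is plotted against that in doxorubicin cells (y axis) for the 43 tested members, with 95% intervals as lines. Rrs1, in red, lies at -0.80 and -0.67, away from the cluster around 0, and Polr1b has the widest interval under doxorubicin.

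The mutant and WT libraries also differed in sex-linked RNA. Xist, transcribed from the inactive X chromosome, averaged 523 ± 74.6 CPM in mutant doxorubicin, 233 ± 29.5 in mutant control, 0.304 ± 0.102 in WT doxorubicin and 0.276 ± 0.0234 CPM in WT control cells (SD, n = 2 each). The Y-linked Ddx3y averaged 59.7 ± 1.32, 73.9 ± 0.0716, 460 ± 17.3 and 545 ± 48.6 CPM in the same groups. The summed level of 6 neural markers, 3 tested, was 28.4 to 30.2, 49.1 to 50.3, 13.1 to 14.1 and 20.6 to 21.6 CPM in those groups, most of it Map2. Genotype and the sex of the embryos behind the cultures cannot be told apart here, and their part in the Rrs1 difference was not tested.

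Some counts may include reads of neighbours. In GENCODE M21, exons of 20 of 44 members share bases with a gene on the opposite strand, among them Tsr1 with 1240 bases shared with Srr and Bysl with 361 shared with Ccnd3. Whether the counting used strand is not given in the sources used here, so these values are uncertain to that extent. The same holds for Npm1 and other members with near-identical processed copies in the genome, since the treatment of reads with several matches is not given either.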

How the data were processed

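The data were raw read counts per gene name deposited by the authors for 8 MEF libraries. Per the submitters' processing notes, reads were handled with Bowtie2 and HTSeq on mouse build mm9; the annotation, strand setting and treatment of reads with several matches are not given in the sources used here. The labels name both a TruSeq RNA Access kit and 3′ RNA sequencing. Columns without a sample numbered 0.

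Genes with at least 10 counts in at least 2 libraries were fitted with edgeR 4.0.16 (limma 3.58.1, R 4.3.3) using TMM factors and 1 coefficient per group over all 8 libraries, and tested with the quasi-likelihood F test, with Benjamini-Hochberg adjustment over all 12296 genes and a threshold of 0.05. The SE is the absolute log2 fold change divided by the square root of F, and intervals are 95%. Total counts of 25482805 to 33285171 put 3 counts at 0.0879 to 0.120 CPM, and these floors cover counting error only. The code was checked on simulated counts with known changes.

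The members and lists were chosen with earlier results of these data known. Values per library are given for the 2 members of each role with the largest absolute WT fold change, for members called between genotypes or in the response difference, and for the member not tested; Polr1e, Rrn3 and Utp20 were added after their values were seen. From each pathway list at most 2 genes per direction are named, taken from those with the largest called change in WT cells. Noc2l is not analysed here. Promoter windows came from RefSeq (GRCm38.p6) and snoRNA genes and overlaps from GENCODE M21. Alternatives were DESeq2 1.42.0, other scaling factors, filterByExpr, no filter, a replicate block and leaving out each library. Python 3.11.15, pandas 2.3.3 and matplotlib 3.10.9 were used for summaries and figures.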

Additional observations from a re-analysis of the deposited data

How the results depend on the processing

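Over 14 alternatives (2 other scalings, DESeq2, 2 filters, the replicate block and 8 left-out libraries) 35 of 43 members in the mutant response and 36 in the WT response never changed their side of the threshold, and none changed direction among called values. Leaving out 1 library gave 30 to 32 members lower in mutant and 30 to 33 in WT cells; DESeq2 gave 30 and 31, and upper-quartile factors 36 and 34. Upper-quartile factors put the mutant median at -0.92, and they called Bop1 (-0.54), Wdr12 (-0.25), Pes1 (-0.58) and Nop16 (-0.29) lower in mutant cells and Nop14 (-0.33) lower in WT cells. Members called higher in mutant than in WT doxorubicin cells numbered 0 as reported, 1 with no filter (Rrn3, 0.21) and 0 to 5 when 1 library was left out. Without mutant doxorubicin library A, Nop10 passed in mutant cells (0.26, adjusted p = 0.040 in edgeR). Rrs1 passed between genotypes under all 14 alternatives in both treatments.

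With the library letter as a replicate block, 33 members fell and 3 rose in mutant cells and 34 fell and 3 rose in WT cells, with Pes1 (-0.52) added in mutant and Nop14 (-0.27) in WT cells. The letters were not shown to pair libraries: the differences of A minus B had a Pearson r across genes of 0.102 between mutant doxorubicin and mutant control and of -0.0555 between WT doxorubicin and WT control. With 2 libraries a group, the median half-width of the interval for the difference in response was 0.35 on the log2 scale, which limits what differences could be detected. Low counts limit Polr1b, Rrp9 and Fbl.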

Other observations

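Genes of RNA polymerase III, which makes tRNA and the smallest ribosomal RNA, were called in both directions at shares at or near those of all tested genes. Of 20 tested, 5 fell and 4 rose in mutant cells and 6 fell and 4 rose in WT cells (edgeR), with backgrounds of 25.7% lower and 28.3% higher in mutant cells and 27.9% lower and 29.3% higher in WT cells. The median log2 fold changes were -0.19 and -0.13. Polr3g, one of the paralogous subunits of that polymerase, stood at 2.25 ± 1.17 CPM in mutant doxorubicin and 8.76 ± 1.00 CPM in mutant control cells, and at 1.90 ± 0.600 CPM in WT doxorubicin and 7.62 ± 0.621 CPM in WT control cells (SD, n = 2 each), a log2 fold change of -1.96 ± 0.23 in mutant and -2.01 ± 0.23 in WT cells. Gtf3c1, the largest subunit of the factor that binds tRNA genes, rose with log2 fold changes of 1.28 ± 0.15 in mutant and 1.61 ± 0.15 in WT cells.

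Among 12 tested genes of the MYC and MAX network, 2 fell and 3 rose in mutant cells and 3 fell and 4 rose in WT cells, which is also near those backgrounds. Myc, a transcription factor known to drive ribosome biogenesis genes, stood at 11.3 ± 1.50 CPM in mutant doxorubicin and 38.7 ± 0.389 CPM in mutant control cells, and at 8.98 ± 1.87 CPM in WT doxorubicin and 33.1 ± 0.329 CPM in WT control cells (SD, n = 2 each). Its log2 fold change was -1.77 ± 0.12 in mutant and -1.88 ± 0.12 in WT cells. Mxd1, a MAX partner that opposes MYC, rose with log2 fold changes of 2.27 ± 0.18 in mutant and 2.07 ± 0.18 in WT cells, and Mnt, another such partner, fell with log2 fold changes of -0.85 ± 0.19 and -1.24 ± 0.19.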
